A study of Homo sapiens with 24 samples.

Results

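The IL6-type cytokines, their shared receptor chains and the colony-stimulating factors were followed as 10 genes of a count table of 39786 genes. Members were taken by gene symbol, each of which matched 1 row: the ligands IL6, IL11 and LIF, the colony-stimulating factors CSF1, CSF2 and CSF3, the receptor chains IL6ST and OSMR, the inhibitor SOCS3 and the transcription factor STAT3. The 24 RNA-seq libraries came from 2 human carcinoma lines, 5637 (bladder) and OVCAR8 (ovary), with 3 libraries in each of 8 groups. Neratinib is an irreversible inhibitor of the EGFR, HER2 and HER4 kinases. The 4 groups of each line were neratinib-resistant (NR) cells on neratinib, NR cells without drug (NR control), parental cells on neratinib, and parental cells without drug (parental control). Treatment lasted 24 h, with 600 nM in 5637 and 1 µM in OVCAR8, so the line and the dose cannot be told apart. Both resistant derivatives had spent 1 week off the drug before plating, and each line had a single derivative, for which clone or pool is not given in the sources used here. The 3 dishes of a group may be technical replicates of 1 culture, and p-values then measure only the spread between these dishes.

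IL6, IL11 and LIF signal through receptor complexes that contain the shared chain gp130, encoded by IL6ST. JAK kinases bound to gp130 phosphorylate STAT3, which moves to the nucleus and switches on genes such as SOCS3, and the SOCS3 protein in turn binds gp130 and blocks the signal. The colony-stimulating factors act on receptors of myeloid cells, and carcinoma cells can secrete them; medium conditioned by 5637 cells is a laboratory source of such factors.

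Genes of both families are known for control by NF-kB, AP-1 and CREB-family factors acting close to the start site. The 250 bases before the start of IL6, IL11 and CSF2, 3 secreted members with more mRNA in resistant than in parental 5637 cells, are shown 5′ to 3′ from RefSeq on GRCh38.p14, with motif matches in capitals.
IL6: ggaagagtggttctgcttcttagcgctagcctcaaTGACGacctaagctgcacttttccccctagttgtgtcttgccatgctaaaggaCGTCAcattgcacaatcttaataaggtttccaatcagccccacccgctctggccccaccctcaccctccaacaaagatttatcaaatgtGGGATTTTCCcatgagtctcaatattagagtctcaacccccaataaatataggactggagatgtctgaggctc
IL11: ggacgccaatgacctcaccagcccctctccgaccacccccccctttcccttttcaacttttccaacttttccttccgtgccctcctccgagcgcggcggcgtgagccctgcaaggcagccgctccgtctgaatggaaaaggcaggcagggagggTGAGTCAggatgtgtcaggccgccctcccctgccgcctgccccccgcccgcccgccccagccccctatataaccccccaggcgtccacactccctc
CSF2: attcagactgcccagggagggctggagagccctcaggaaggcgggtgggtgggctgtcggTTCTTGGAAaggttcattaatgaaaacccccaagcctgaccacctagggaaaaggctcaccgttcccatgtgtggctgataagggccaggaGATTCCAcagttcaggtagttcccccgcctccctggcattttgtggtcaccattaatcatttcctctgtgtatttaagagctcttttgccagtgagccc
These windows lie at chr7:22726950-22727199 on the plus strand (IL6), chr19:55370464-55370713 on the minus strand (IL11) and chr5:132073539-132073788 on the plus strand (CSF2). The IL6 window held a match to the NF-kB consensus at bases -73 to -64 and both orientations of the CRE core TGACG, at -215 to -211 and -162 to -158. The IL11 window held the AP-1 motif TGANTCA at -96 to -90. The CSF2 window held GATTCCA, the core of the cytokine element CK-1, at -99 to -93, and the STAT motif TTCNNNGAA at -190 to -182. None of these matches overlapped another. In the other promoters searched, IL6ST had an NF-kB consensus match at -53 to -44 and STAT3 a CRE core at -116 to -112. The OSMR window and the 2 SOCS3 windows held no match to any motif searched. The TATA motif TATAAA was found in none of the 7 members. On both strands of 35116 promoter windows of the same length, the NF-kB consensus was found in 9.96%, the CRE core in 21.2%, the AP-1 motif in 6.57%, the STAT motif in 6.57%, the TATA motif in 10.7% and the CK-1 core in 2.78%. The 7 members with an entry in the table were searched; the matches describe letters in a window and carry no measurement of binding, and the motifs were chosen with the sequences in view.

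Library totals ran between 23.8 M and 48.5 M counts, and levels are given as CPM, the count scaled to a library of 1 M. With 3 counts as the floor of detection, the shallowest library resolved 0.126 CPM; floors and count intervals cover counting error only. Urothelial markers averaged at least 1 CPM for 10 of 10 genes in 5637 and 4 of 10 in OVCAR8. Markers of Müllerian or ovarian carcinoma did so for 7 of 9 genes in 5637 and 6 of 9 in OVCAR8, so this list did not set OVCAR8 apart. Leukocyte markers averaged at least 1 CPM for 0 of 9 genes in 5637 and 2 of 9 in OVCAR8. Their sums stayed between 1.15 and 2.17 CPM in 5637 libraries and between 3.52 and 5.77 CPM in OVCAR8 libraries, where PTPRC and CD3E had 0 counts. Marker sums also moved with resistance in both lines. In 5637 there were urothelial sums of 3210 to 3490 CPM in NR controls and 10800 to 11300 CPM in parental controls, and fibroblast sums of 44.2 to 49.8 CPM in NR controls and 147 to 154 CPM in parental controls. In OVCAR8 NR controls had urothelial sums of 450 to 488, Müllerian sums of 2860 to 3060 and fibroblast sums of 875 to 969 CPM, against 1120 to 1580, 4790 to 7100 and 1160 to 1290 CPM in parental controls. The part of these markers in the results was not tested. OVCAR8 parental control replicate 2 stood apart: genes longer than 8000 bases held 14.1% of its counts, against 20.7% and 21.2% in the other replicates of its group. Long members were low in it too, and the OVCAR8 and line comparisons that use it, also through the shared estimate of spread, are given with and without it where a call changed.

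Per kilobase of gene length (RPKM), the order of the members differed between groups. In 5637 NR control cells CSF3 ranked first with 179 RPKM, ahead of CSF2 with 117 and LIF with 41.3 RPKM, and STAT3 was next with 27 RPKM. In 5637 parental control cells STAT3 led with 26.7 RPKM, followed by LIF with 12.8 and CSF2 with 10.7 RPKM, and CSF3 had 4.77 RPKM. Without drug the secreted factors thus took the top 3 ranks in resistant 5637 cells. In OVCAR8, OSMR or IL6ST ranked first in every group, with 20.4 RPKM in NR cells on neratinib, 24.7 in NR controls, 13.5 in parental cells on neratinib and 12.6 RPKM in parental controls, and CSF2 and CSF3 ranked last in every group.

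**Figure D1:**
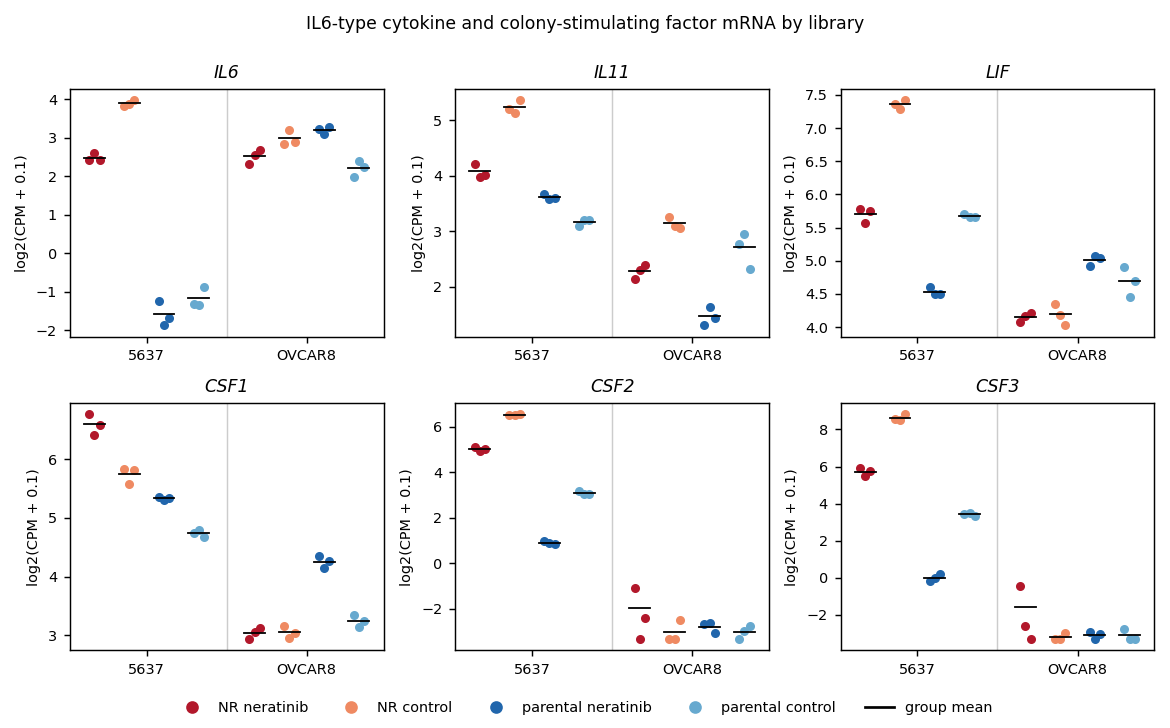
Level of each secreted member in every library, as log2 of CPM plus 0.1 (y axis), by cell line (x axis); points are libraries coloured by group and bars are group means. In 5637 the NR control libraries are highest for all of these genes except CSF1, and CSF2 and CSF3 lie near the floor in OVCAR8.

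Resistant 5637 cells without drug carried more mRNA of most of the 10 members than parental 5637 cells. Of the 10 members, 9 rose in NR control against parental control cells and none fell, where 56.5% of all tested genes were called, 28.4% higher and 28% lower. The median log2 difference of the members was 1.57, against 0.00 over all genes. A call means an adjusted p (Benjamini-Hochberg over all genes, edgeR quasi-likelihood test) under 0.05. Neratinib in NR cells then lowered 7 members and raised 1, where 39.5% of genes were called, 18.4% higher and 21.1% lower, and the members' median was -1.12 against 0.00. On drug, 8 members remained higher and 1 lower in NR than in parental cells, where 58% of genes were called, 28.8% higher and 29.2% lower. In parental cells neratinib raised 3 members and lowered 4, with 47.3% of genes called, 23.9% higher and 23.5% lower, and a member median of -0.29 against 0.02. The difference of the drug effects, NR minus parental, was above 0 for 1 called member and below 0 for 4, where 13.9% of genes were called, 7.39% above and 6.48% below. These comparisons share libraries pairwise, and in bulk RNA fewer expressing cells and less mRNA per cell cannot be told apart.

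IL6 (ENSG00000136244.7, hg19 chromosome 7, 22765503 to 22771621), the founding cytokine of the family and an inducer of the acute phase response, had under 0.5 CPM in every parental 5637 library. It had 5.22, 5.95 and 5.23 CPM in NR cells on neratinib, and 14, 14.7 and 15.6 CPM in NR controls. Parental cells had 0.324, 0.174 and 0.21 CPM on neratinib, and 0.299, 0.296 and 0.447 CPM in controls, which is 12, 12 and 19 counts. NR and parental libraries did not overlap with or without drug. The log2 difference of NR against parental cells was 4.49 ± 0.19 (SE, adjusted p = 2e-11) on drug and 5.38 ± 0.17 (adjusted p = 4.4e-13) without drug. Neratinib lowered IL6 in NR cells by a log2 change of -1.56 ± 0.12 (adjusted p = 4.1e-08), while in parental cells the change of -0.68 ± 0.30 missed the threshold (adjusted p = 0.089) at these few counts; the change passed without parental neratinib replicate 1 (-0.95, adjusted p = 0.043). The gene AC073072.5 overlaps IL6 and had 0 to 1 CPM over all libraries, a range that covers IL6 in parental 5637 cells; whether counting used strand is not given in the sources used here, so the lowest IL6 levels are uncertain.

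IL11 (ENSG00000095752.2, chromosome 19, 55875757 to 55881831), a gp130 cytokine with roles in fibrosis and bone turnover, changed in opposite directions on the drug. NR cells had 18.5, 15.7 and 16.1 CPM on neratinib, and 36.8, 34.9 and 41 CPM in controls. Parental cells had 12.7, 11.9 and 12 CPM on neratinib, and 8.44, 9.07 and 9.06 CPM in controls. All treated NR libraries lay below the NR controls, and all treated parental libraries lay above the parental controls. Neratinib changed IL11 by -1.29 ± 0.09 (log2, adjusted p = 2.2e-08) in NR cells and by 0.36 ± 0.096 (adjusted p = 0.0065) in parental cells. The difference of these effects, NR minus parental, was -1.64 ± 0.13 (adjusted p = 8.2e-07). On drug IL11 was 0.43 ± 0.093 log2 units higher in NR than in parental cells (adjusted p = 0.001), and without it 2.07 ± 0.094 higher (adjusted p = 4e-11).

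LIF (ENSG00000128342.4, chromosome 22, 30636436 to 30642840) encodes leukaemia inhibitory factor, which signals through gp130 paired with LIFR. NR cells had 55.1, 47.3 and 54 CPM on neratinib, and 164, 157 and 171 CPM in controls. Parental cells had 24.2, 22.6 and 22.4 CPM on neratinib, and 51.8, 50.4 and 50.6 CPM in controls. Treated NR libraries lay around the level of the untreated parental ones, which they overlapped. NR controls exceeded parental controls by 1.67 ± 0.069 (log2, adjusted p = 1.2e-11). Neratinib lowered LIF by a log2 change of -1.78 ± 0.069 in NR cells (adjusted p = 3.1e-11) and of -1.25 ± 0.071 in parental cells (adjusted p = 1.6e-09), and the fall was larger in NR cells by -0.52 ± 0.098 (adjusted p = 0.0019).

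CSF1 (ENSG00000184371.9, chromosome 1, 110452864 to 110473614), the macrophage colony-stimulating factor, was the one secreted member that neratinib raised in both 5637 states. NR cells had 109, 85.4 and 95.7 CPM on neratinib, and 57, 47.8 and 56.5 CPM in controls. Parental cells had 40.9, 39.6 and 40.6 CPM on neratinib, and 26.7, 27.8 and 25.6 CPM in controls. The groups did not overlap, with treated NR cells highest and parental controls lowest. The drug effect was 0.72 ± 0.091 (log2, adjusted p = 1.4e-05) in NR cells and 0.49 ± 0.094 (adjusted p = 0.00049) in parental cells, and the difference of 0.23 between them, with a 95% interval of -0.02 to 0.49, was not called (adjusted p = 0.28).

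CSF2 (ENSG00000164400.4, chromosome 5, 131409483 to 131411859) encodes GM-CSF, a growth and activation factor of granulocytes and macrophages. NR cells had 34.2, 30.5 and 32 CPM on neratinib, and 90.9, 91.6 and 93.2 CPM in controls. Parental cells had 1.86, 1.74 and 1.68 CPM on neratinib, and 8.84, 8.21 and 8.02 CPM in controls. The lowest NR library was above the highest parental one. NR exceeded parental cells by 4.16 ± 0.091 (log2, adjusted p = 1.3e-14) on drug and by 3.44 ± 0.076 (adjusted p = 1.2e-14) without drug. Neratinib lowered CSF2 by a log2 change of -1.64 ± 0.068 in NR cells (adjusted p = 7e-11), a smaller fall than in parental cells, by 0.71 ± 0.12 (adjusted p = 0.00079).

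CSF3 (ENSG00000108342.8, chromosome 17, 38171614 to 38174066), the granulocyte colony-stimulating factor that drives neutrophil production, spanned the widest range of the members within 5637. NR cells had 59.3, 44 and 53.9 CPM on neratinib, and 378, 362 and 454 CPM in controls. Parental cells had 0.784, 0.872 and 1.05 CPM on neratinib, and 10.6, 11.3 and 9.86 CPM in controls. Treated NR libraries were still above the parental controls. The NR minus parental difference was 5.81 ± 0.17 (log2, adjusted p = 2.4e-13) on drug and 5.22 ± 0.13 (adjusted p = 4.5e-14) without drug. The fall on neratinib in NR cells, -3.05 ± 0.11 (adjusted p = 2e-11), differed from that in parental cells by 0.60 ± 0.23, which was not called (adjusted p = 0.11) but was called with DESeq2 (0.61, adjusted p = 0.046), without the filter on low counts (0.61, adjusted p = 0.0012), without NR control replicate 3 (0.72, adjusted p = 0.032) and without NR neratinib replicate 2 (0.71, adjusted p = 0.033).

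The receptor chain OSMR (ENSG00000145623.8, chromosome 5, 38845960 to 38945698) pairs with gp130 to bind oncostatin M. NR cells had 102, 111 and 103 CPM on neratinib, and 188, 189 and 180 CPM in controls. Parental cells had 54.2, 54.2 and 56.9 CPM on neratinib, and 65.2, 68.6 and 64.8 CPM in controls. No 2 groups overlapped, and NR cells were higher in both conditions. OSMR was higher in NR than in parental cells by 0.90 ± 0.053 (log2, adjusted p = 1e-09) on drug and by 1.47 ± 0.053 (adjusted p = 2.4e-12) without drug, and neratinib lowered OSMR more in NR cells, by -0.57 ± 0.074 (adjusted p = 8.1e-05). The gene RICTOR overlaps OSMR on the genome and had 6.67 to 64.9 CPM over all libraries, and with the strand setting unknown reads in the overlap cannot be assigned with certainty.

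IL6ST (ENSG00000134352.15, chromosome 5, 55230923 to 55290821), the gp130 chain that all 3 ligands need, varied more between replicates. An overlapping gene, CTD-2031P19.4, had 1.09 to 12.6 CPM, and the pair that overlaps LIF had at most 0.339 and 1.84 CPM. NR cells had 128, 171 and 199 CPM on neratinib, and 188, 194 and 149 CPM in controls. Parental cells had 131, 120 and 159 CPM on neratinib, and 83.7, 89.9 and 83.7 CPM in controls. The parental controls lay below every other library, and the remaining groups overlapped. IL6ST was 1.03 ± 0.13 log2 units higher in NR than in parental controls (adjusted p = 5.5e-06), and neratinib raised it in parental cells by 0.56 ± 0.13 (adjusted p = 0.002). In NR cells its change of -0.22 ± 0.13 was not called (adjusted p = 0.19), except without the filter on low counts (-0.19, adjusted p = 0.027), and the effects differed by -0.78 ± 0.18 (adjusted p = 0.0087). On drug the NR minus parental difference of 0.25 ± 0.13 was not called (adjusted p = 0.11) but passed without the filter (0.26, adjusted p = 0.00065), without parental neratinib replicate 3 (0.37, adjusted p = 0.029) and without NR neratinib replicate 1 (0.39, adjusted p = 0.0034).

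SOCS3 (ENSG00000184557.3, chromosome 17, 76352864 to 76356158), the feedback inhibitor, had 22.7, 21.2 and 23.1 CPM in NR cells on neratinib, and 23.7, 24.8 and 27.2 CPM in NR controls. Parental cells had 11.9, 9.95 and 10 CPM on neratinib, and 11.5, 11.1 and 11.4 CPM in controls. The NR libraries were all higher than the parental ones, by 1.04 ± 0.089 (log2, adjusted p = 7.3e-08) on drug and 1.14 ± 0.088 (adjusted p = 2.3e-08) without drug. The small fall on neratinib in NR cells, -0.30 ± 0.085 (adjusted p = 0.01), lost its call with library size scaling (-0.18, adjusted p = 0.1) and without NR control replicate 3 (-0.23, adjusted p = 0.059). In parental cells the change of -0.21 ± 0.091 was not called (adjusted p = 0.074), except without parental neratinib replicate 1 (-0.30, adjusted p = 0.022).

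STAT3 (ENSG00000168610.10, chromosome 17, 40465342 to 40540586), the factor that carries the gp130 signal to the nucleus, had a similar level in all 4 groups of 5637. NR cells had 250, 249 and 242 CPM on neratinib, and 240, 231 and 242 CPM in controls. Parental cells had 263, 274 and 258 CPM on neratinib, and 231, 241 and 234 CPM in controls. Without drug the NR and parental libraries overlapped, and the log2 difference was 0.00 with a 95% interval of -0.10 to 0.10 (adjusted p = 0.99). On drug STAT3 was lower in NR cells by a log2 change of -0.14 ± 0.05 (adjusted p = 0.03), a call lost in 7 alternative settings, among them leaving out parental neratinib replicate 1 (adjusted p = 0.062) or 2 (0.15) or NR neratinib replicate 3 (-0.09, adjusted p = 0.2). Its neratinib effect was -0.07 ± 0.05 in NR cells (adjusted p = 0.29) and 0.06 ± 0.05 in parental cells (adjusted p = 0.31), which was called with library size scaling (0.17, adjusted p = 0.0048). STAT3 activity depends on phosphorylation, which was not measured.

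**Figure D2:**
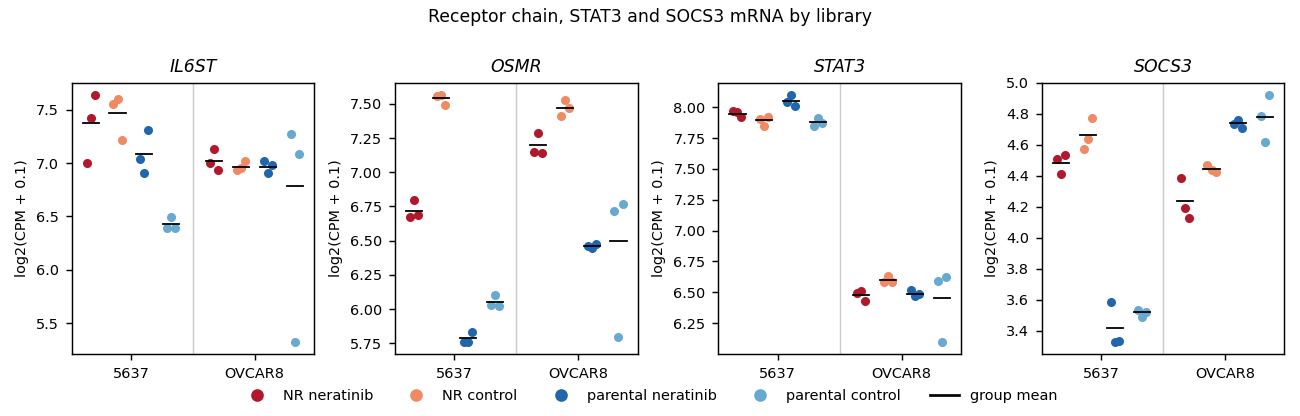
Level of the receptor chains, STAT3 and SOCS3 in every library, as log2 of CPM plus 0.1 (y axis), by cell line (x axis); points are libraries coloured by group and bars are group means. OVCAR8 parental control replicate 2 is the low point for IL6ST (40 CPM), OSMR (55.6 CPM) and STAT3 (68.5 CPM).

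In OVCAR8 the called members lay on both sides, and fewer of them were called. CSF2 and CSF3 fell under the filter on low counts, so 8 of the 10 members were tested there. Between NR and parental controls 2 members were higher and 2 lower, where 9.84% of genes were called, 4.94% higher and 4.91% lower, with a member median of 0.14 against -0.01 over all genes. Neratinib raised 2 and lowered 1 in parental cells, where 32.5% of genes were called, 16.2% higher and 16.3% lower. It lowered 1 in NR cells, where 1.39% were called, 0.642% higher and 0.747% lower. On drug 2 were higher and 4 lower in NR than in parental cells, where 31% were called, 14.6% higher and 16.4% lower. The difference of the drug effects was below 0 for 2 members and above for none, where 8.83% of genes were called, 4.62% above and 4.21% below. Without parental control replicate 2, more of the 18537 genes tested were called. The parental drug effect gave 4506 higher and 4611 lower, and the comparison of controls 2118 higher and 2107 lower. The difference of drug effects gave 3157 above and 2919 below 0. Of the members, the parental drug effect without that library counted 2 higher and 5 lower, and the comparison of controls 3 higher and 3 lower. The difference of drug effects counted 1 member above and 2 below 0. The member calls made with all libraries were all among these member calls, with IL6 at 1.04, IL11 at -1.17 and CSF1 at 0.90 for neratinib in parental cells, IL6 at 0.86, LIF at -0.61, OSMR at 0.72 and SOCS3 at -0.41 between controls, and IL6 at -1.51 and CSF1 at -0.95 for the difference. In NR cells neratinib lowered 5 members without parental control replicate 2, which enters that fit only through the shared spread and scaling: IL11 (-0.89, adjusted p = 9.6e-06), IL6 (-0.46, adjusted p = 0.0054), OSMR (-0.30, adjusted p = 3.3e-05), SOCS3 (-0.24, adjusted p = 0.012) and STAT3 (-0.15, adjusted p = 0.0095). All genes called in that comparison then numbered 3950, against 251 with it, and the same 5 members were called when only the 6 NR libraries were fitted. The 4 calls between controls all missed the threshold when only those 6 libraries were fitted, with adjusted p of 0.11 (IL6), 0.096 (LIF), 0.076 (OSMR) and 0.12 (SOCS3). Without NR control replicate 2, the calls of IL6 and SOCS3 were lost (adjusted p = 0.056 each), and without NR control replicate 3 that of SOCS3 was lost (adjusted p = 0.054).

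IL6 had 4.86, 5.82 and 6.35 CPM in NR OVCAR8 cells on neratinib, and 7.04, 9.1 and 7.36 CPM in NR controls. Parental OVCAR8 cells had 9.27, 8.41 and 9.56 CPM on neratinib, and 3.87, 5.13 and 4.63 CPM in controls. Treated parental libraries were above the parental controls, and treated NR libraries were below the NR controls. The change on neratinib was -0.47 ± 0.15 (log2, adjusted p = 0.18) in NR cells, which was called without parental control replicate 2 (-0.46, adjusted p = 0.0054), and a rise of 0.90 ± 0.16 in parental cells (adjusted p = 0.0011). The difference of the effects, -1.37 ± 0.22 (adjusted p = 0.0036), was called. On drug IL6 was lower in NR than in parental cells, at -0.64 ± 0.15 (adjusted p = 0.0075), and without drug it was 0.73 ± 0.16 higher (adjusted p = 0.012).

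IL11 had 4.32, 4.86 and 5.18 CPM in NR OVCAR8 cells on neratinib, and 9.47, 8.43 and 8.26 CPM in NR controls. In the parental line it had 2.37, 3.01 and 2.59 CPM on neratinib, and 6.75, 7.65 and 4.92 CPM in controls. Every treated library lay below the controls of its own state. Neratinib lowered IL11 by a log2 change of -0.88 ± 0.17 in NR cells (adjusted p = 0.03) and of -1.37 ± 0.18 in parental cells (adjusted p = 0.00016). With parental control replicate 2 in the fit, the NR call was lost with each of the 6 NR libraries left out in turn, with adjusted p of 0.092 to 0.15 and log2 changes of -0.94 to -0.82. Without parental control replicate 2, IL11 was also called higher in NR than in parental controls (0.58, adjusted p = 0.0016), against 0.39 ± 0.17 with it (adjusted p = 0.17).

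LIF had 16.7, 17.8 and 18.4 CPM in NR OVCAR8 cells on neratinib, and 20.3, 18.1 and 16.2 CPM in NR controls. Parental OVCAR8 cells had 30.2, 33.7 and 33 CPM on neratinib, and 30, 21.9 and 25.8 CPM in controls. NR libraries were below parental ones in both conditions, the reverse of 5637. The difference of NR against parental cells was -0.84 ± 0.10 (log2, adjusted p = 9e-05) on drug and -0.55 ± 0.10 (adjusted p = 0.0049) without drug.

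CSF1 had 7.55, 8.25 and 8.62 CPM in NR OVCAR8 cells on neratinib, and 8.88, 7.67 and 8.13 CPM in NR controls. In the parental line it had 20.3, 17.6 and 19.1 CPM on neratinib, and 10.1, 8.7 and 9.42 CPM in controls. Only the treated parental libraries stood above the rest. The change of CSF1 on neratinib was -0.04 in NR cells (log2, 95% interval -0.22 to 0.15, adjusted p = 0.93) and a rise of 0.91 ± 0.092 in parental cells (adjusted p = 2.5e-05). The effects differed by -0.95 ± 0.13 (adjusted p = 0.0018).

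CSF2 and CSF3 were at or near the floor in OVCAR8. CSF2 had 14, 0 and 4 counts in NR cells on neratinib, 0, 0 and 3 in NR controls, 2, 3 and 1 in parental cells on neratinib, and 0, 1 and 2 in parental controls. CSF3 had 23, 3 and 0 counts in NR cells on neratinib, 0, 0 and 1 in NR controls, 1, 0 and 1 in parental cells on neratinib, and 2, 0 and 0 in parental controls. NR neratinib replicate 1 held 14 of the 18 CSF2 counts and 23 of the 26 CSF3 counts of its group.

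OSMR had 142, 156 and 141 CPM in NR OVCAR8 cells on neratinib, and 170, 184 and 177 CPM in NR controls. The parental line had 87.8, 87.3 and 89.1 CPM on neratinib, and 105, 55.6 and 109 CPM in controls. NR libraries were all above parental ones, by 0.77 ± 0.16 (log2, adjusted p = 0.0037) on drug and 0.94 ± 0.16 (adjusted p = 0.003) without drug. Without parental control replicate 2 the difference between controls was 0.72 (adjusted p = 1.3e-10), and neratinib lowered OSMR in parental cells (-0.34, adjusted p = 4.7e-06), where the value with it was -0.11 ± 0.16 (adjusted p = 0.62).

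IL6ST had 128, 140 and 122 CPM in NR OVCAR8 cells on neratinib, and 122, 124 and 130 CPM in NR controls. Parental OVCAR8 cells had 130, 120 and 126 CPM on neratinib, and 155, 40 and 136 CPM in controls. No change of IL6ST was called in OVCAR8 with all libraries. Without the low parental control, IL6ST was called lower on neratinib in parental cells (-0.26, adjusted p = 0.00042) and lower in NR than in parental controls (-0.21, adjusted p = 0.009), and both values were above 0 with it, at 0.12 and 0.17. The difference of the IL6ST drug effects, NR minus parental, was called above 0 without that library (0.29, adjusted p = 0.0053), against -0.08 with it.

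SOCS3 had 20.8, 18.2 and 17.4 CPM in NR OVCAR8 cells on neratinib, and 22.1, 21.6 and 21.4 CPM in NR controls. Parental OVCAR8 cells had 26.5, 27 and 26.1 CPM on neratinib, and 27.5, 24.5 and 30.2 CPM in controls. NR libraries were below parental ones, by a log2 change of -0.47 ± 0.083 (adjusted p = 0.0012) on drug and of -0.38 ± 0.083 (adjusted p = 0.013) without drug. STAT3 had 86.3 to 91 CPM in NR cells on neratinib, 95.7 to 99.3 CPM in NR controls, 88.7 to 91.4 CPM in parental cells on neratinib and 68.5 to 98.6 CPM in parental controls, and no comparison of it was called in OVCAR8 with all libraries. Without parental control replicate 2, STAT3 was called lower on neratinib in parental cells (-0.17, adjusted p = 0.0027) and SOCS3 likewise (-0.17, adjusted p = 0.047).

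**Figure D3:**
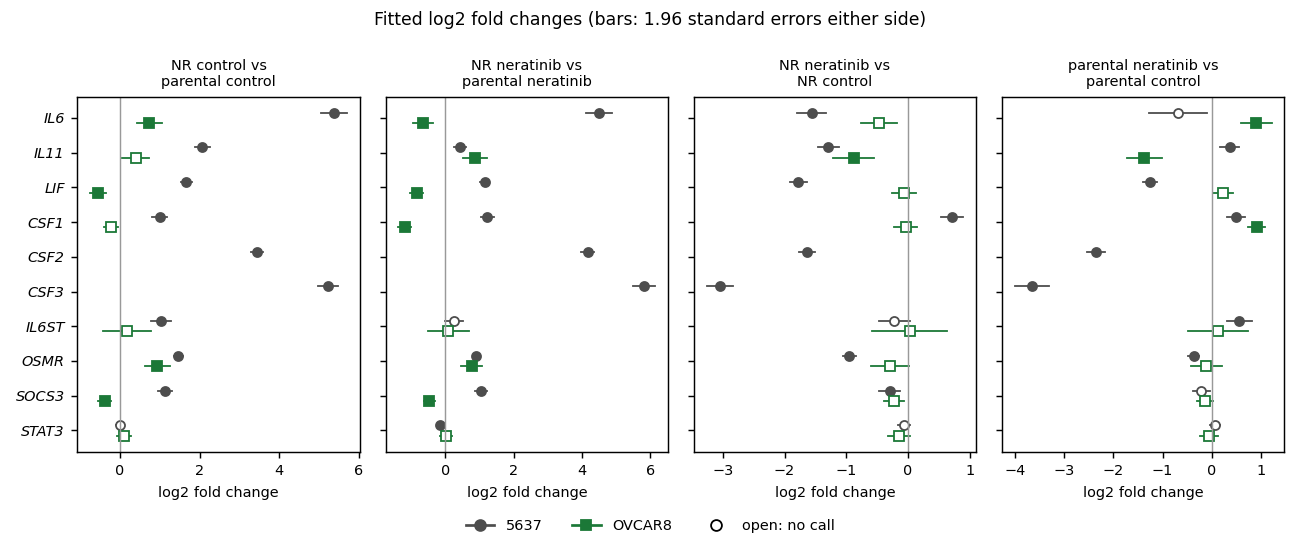
Fitted log2 fold changes (x axis) of each member (y axis) in 4 comparisons, with bars of 1.96 standard errors either side; circles are 5637, squares are OVCAR8, and open symbols are not called. In NR against parental controls every 5637 circle except STAT3 lies right of 0, and OVCAR8 squares lie on both sides.

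Tests of the difference between lines used all 24 libraries. The NR against parental difference without drug was larger in 5637 than in OVCAR8 for 6 members and smaller for none, where 32.9% of genes were called, 18.1% larger and 14.8% smaller. The line difference, 5637 minus OVCAR8, was 4.67 ± 0.25 for IL6 (log2, adjusted p = 1e-12), 2.24 ± 0.13 for LIF (adjusted p = 2.7e-12), 1.70 ± 0.19 for IL11 (adjusted p = 2.3e-07) and 1.53 ± 0.13 for SOCS3 (adjusted p = 1.3e-09). For LIF and SOCS3 the direction itself was opposite, with a rise in 5637 and a fall in OVCAR8. Both OVCAR8 falls lost their call when only the control libraries were fitted (adjusted p = 0.096 for LIF and 0.12 for SOCS3). The SOCS3 fall also lost it without NR control replicate 2 or 3 (adjusted p = 0.056 and 0.054). OSMR rose in both lines, and its line difference of 0.55 ± 0.18 (adjusted p = 0.019) lost its call in 5 alternative settings. Without OVCAR8 parental control replicate 2 it was 0.77 (adjusted p = 2.9e-09), and IL6ST joined the called members (1.26, adjusted p = 3.6e-07), where 8136 of 20813 genes were called. In parental 5637 without drug, SOCS3 was lower than in parental OVCAR8 (-1.26 ± 0.09, adjusted p = 8.2e-12), as was IL6 (-3.69 ± 0.21, adjusted p = 9.6e-14), and STAT3 was higher (1.43 ± 0.078, adjusted p = 5e-14), where 72% of genes were called, 35.1% higher and 36.8% lower, and 9 of 10 members, 6 higher and 3 lower. The 6 higher members include CSF2 and CSF3, with 3 and 2 counts in total over the OVCAR8 parental controls. Both passed the filter through 5637 alone. Without OVCAR8 parental control replicate 2 all 10 members were called, CSF2 and CSF3 again among them, where 15160 of 20813 genes were called. IL6ST was then at -0.71 (adjusted p = 5.8e-06), against -0.33 ± 0.25 with that library (adjusted p = 0.24). IL11 and OSMR lost that call when only the 6 libraries compared were fitted (adjusted p = 0.075 and 0.12), as did OSMR without OVCAR8 parental control replicate 3 (-0.26, adjusted p = 0.07).

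The response to neratinib differed between lines for 6 members in NR cells, 1 above 0 and 5 below, where 9.82% of genes were called, 4.78% above and 5.04% below. LIF differed by -1.71 ± 0.13 (log2, adjusted p = 1.8e-09), IL6 by -1.08 ± 0.20 (adjusted p = 0.00073) and CSF1 by 0.77 ± 0.14 (adjusted p = 0.00054). In parental cells it differed for 3 members, 1 above 0 and 2 below, where 10.3% of genes were called, 4.83% above and 5.46% below. These differences were 1.73 ± 0.20 for IL11 (adjusted p = 2.8e-06), -1.47 ± 0.13 for LIF (adjusted p = 3.4e-08) and -1.57 ± 0.36 for IL6 (adjusted p = 0.0055). The IL6 value rests on 7 to 19 counts in each parental 5637 library, and the IL6 drug effect there was not called with all libraries. IL11 rose on the drug in parental 5637 and fell in parental OVCAR8. Without OVCAR8 parental control replicate 2, CSF1 (-0.41, adjusted p = 0.036), IL6ST (0.84, adjusted p = 0.00041) and STAT3 (0.24, adjusted p = 0.011) were called as well, where 3869 of 20813 genes were called. The 6 members called in NR cells include CSF2 and CSF3, whose OVCAR8 counts of 0 to 23 let them pass the filter through 5637 alone. Both lost the call without OVCAR8 NR neratinib replicate 1 (adjusted p = 0.29 and 0.096). For these genes the lines are compared by counts without drug. Over 3 control libraries, NR 5637 held 10435 CSF2 counts and NR OVCAR8 3, a depth-scaled ratio of 3.24e+03 (95% counting interval 1.11e+03 to 1.57e+04), and parental 5637 held 1029 and parental OVCAR8 3, a ratio of 326 (111 to 1.58e+03). CSF3 counts in controls were 45449 in NR 5637 and 1 in NR OVCAR8, and 1304 in parental 5637 and 2 in parental OVCAR8, the second pair a ratio of 619 (171 to 5.12e+03); the first pair gave 4.24e+04 (7.6e+03 to 1.67e+06).

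Receptor genes of the family went both ways in 5637. IL6R, the chain that gives IL6 its specificity, was lower in NR 5637 cells, with 2.7, 2.5 and 2.62 CPM in NR controls and 11.4, 11.1 and 11 CPM in parental controls, a log2 change of -2.11 ± 0.11 (adjusted p = 2.6e-10). IL31RA, which pairs with OSMR to bind IL31, was higher, with 6.99 ± 0.458 CPM in NR controls and 1.9 ± 0.297 CPM in parental controls (SD, n = 3 each; log2 1.86 ± 0.15 SE, adjusted p = 2.5e-08). In OVCAR8 neither was called between NR and parental controls (0.17 ± 0.17, adjusted p = 0.53, and 0.11 ± 0.17, adjusted p = 0.7), nor without parental control replicate 2 (-0.05 and -0.10). CSF3R, the receptor of the CSF3 product, averaged at most 0.0182 CPM in any group, CSF2RB at most 0.525 CPM and CSF1R at most 0.719 CPM. CSF2RA had 0 counts in most libraries, but it lies in the pseudoautosomal region, whose copies on both sex chromosomes of the reference can make reads ambiguous, so its level is uncertain. Of the 10 receptor genes listed, 6 were tested in 5637, of which 2 were higher and 2 lower in NR than in parental controls, with a median of 0.03 against 0.00 over all genes, of which 28.4% were higher and 28% lower.

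Most genes listed as inducers of these cytokines, a list of both ligands and receptors, were higher in resistant 5637 cells as well. The 8 tested were the ligands IL1A, IL1B and TGFB1 and the receptors IL1R1, IL17RA, TLR2, TLR3 and TLR4. Of 8 tested inducers, 6 were higher and none lower in NR than in parental controls, with a median of 0.85 against 0.00, where 28.4% of all genes were higher and 28% lower. IL1B, an interleukin-1 that switches on IL6 and the CSF genes, had 643, 637 and 711 CPM in NR controls, against 94.1, 103 and 97.4 CPM in parental controls (log2 2.74 ± 0.061, adjusted p = 1.5e-14). IL1A had 438, 461 and 391 CPM in NR controls, against 104, 98.3 and 93.5 CPM in parental controls (2.11 ± 0.088, adjusted p = 1.4e-11). Neratinib lowered 5 of the 8 inducers and raised 1 in NR cells, where 21.1% of all genes were lower and 18.4% higher, and lowered 5 and raised 2 in parental cells, where 23.5% were lower and 23.9% higher. In OVCAR8 IL1A and IL1B also rose in NR cells, with 15.2 ± 1 and 21 ± 1.3 CPM in NR controls, against 1.3 ± 0.316 and 3.42 ± 0.452 CPM in parental controls (SD, n = 3; log2 3.50 ± 0.18 and 2.57 ± 0.13 SE, adjusted p = 2.7e-07 and 2.2e-07). Without OVCAR8 parental control replicate 2 these differences were 3.45 and 2.68. There, 3 of 7 tested inducers were higher and 1 lower in NR controls, with or without that library. Over all OVCAR8 genes 4.94% were higher and 4.91% lower with that library, and 2118 and 2107 of 18537 without it.

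Among 18 regulators of the NF-kB, AP-1, ETS and NFAT type, 9 were higher and 5 lower in NR than in parental 5637 controls, with a median of 0.28 against 0.00. Over all genes 28.4% were higher and 28% lower. The AP-1 subunit FOSL1 had 1520, 1340 and 1620 CPM in NR controls, against 391, 369 and 363 CPM in parental controls (log2 1.98 ± 0.084, adjusted p = 1.7e-11), and neratinib lowered it in both states, by -1.12 ± 0.082 in NR cells (adjusted p = 3.6e-08) and -2.39 ± 0.086 in parental cells (adjusted p = 1.1e-11). ETS1 and NFATC2 were higher too, at 1.73 ± 0.059 and 1.97 ± 0.099, and NFATC1 was lower, at -1.05 ± 0.089. On neratinib 10 of the 18, JUN among them (-1.12 ± 0.11), fell and 4 rose in NR cells, and 6 fell and 3 rose in parental cells. Of all genes, 21.1% fell and 18.4% rose in NR cells, and 23.5% fell and 23.9% rose in parental cells. In NR OVCAR8 controls 5 of the 18 were higher and none lower, FOSL1 by 0.89 ± 0.068 (adjusted p = 6.3e-06), where 4.94% of all genes were higher and 4.91% lower. Without parental control replicate 2, 10 were higher and 1 lower, with FOSL1 again at 0.89. Of 18537 genes tested in that fit, 2118 were higher and 2107 lower.

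**Figure D4:**
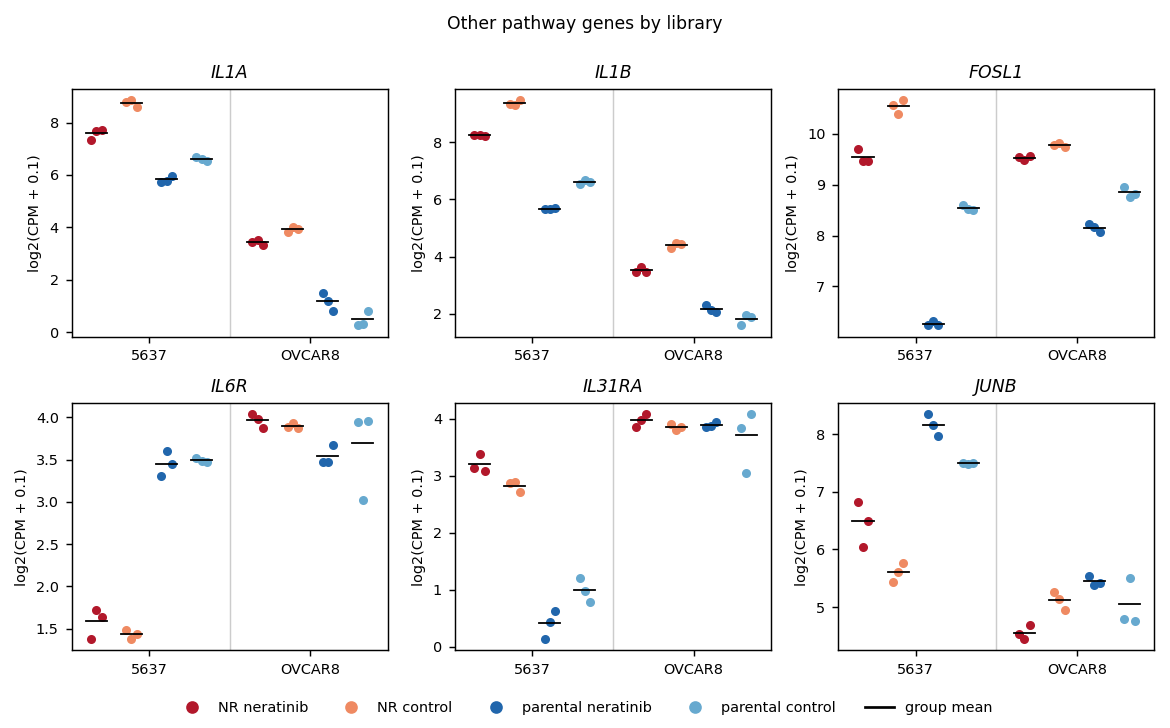
Level of 6 genes of the same pathways in every library, as log2 of CPM plus 0.1 (y axis), by cell line (x axis); points are libraries coloured by group and bars are group means. IL1A, IL1B and FOSL1 are higher in NR than in parental controls of both lines, whereas IL6R is lower in NR 5637 cells, with 2.61 against 11.2 CPM on average.

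Known STAT3 targets did not move in 1 direction. Of 26 listed, 21 were tested in 5637, and 11 were higher and 7 lower in NR than in parental controls, with a median of 0.16 against 0.00. Over all genes 28.4% were higher and 28% lower. The acute phase gene SAA1 had 146 ± 7.57 CPM in NR controls and 44.6 ± 1.71 CPM in parental controls (log2 1.69 ± 0.06 SE), although reads of the near-identical SAA2 make it uncertain, and the adhesion receptor ICAM1 had 115 ± 4.26 CPM in NR controls and 35.4 ± 0.548 CPM in parental controls (1.68 ± 0.067). JUNB, an immediate early AP-1 gene, was lower, with 43.3, 48.6 and 54.1 CPM in NR controls, against 181, 178 and 180 CPM in parental controls (-1.90 ± 0.15, adjusted p = 3.8e-08). BCL3 (-1.07 ± 0.14) and STEAP4 (-2.10 ± 0.13) were lower as well. Neratinib lowered 9 of the 21 and raised 5 in NR cells, where CCND1, the cell cycle gene cyclin D1, had 94.8 ± 3.78 CPM on drug and 538 ± 8.56 CPM without (-2.63 ± 0.053, adjusted p = 3.5e-14), and lowered 5 and raised 7 in parental cells. Of all genes, 21.1% were lowered and 18.4% raised in NR cells, and 23.5% lowered and 23.9% raised in parental cells. VEGFA, an angiogenic factor with many other inputs, moved in opposite directions, with -0.85 in NR cells (79.3 ± 4.84 CPM on drug, 131 ± 7.66 CPM without) and 1.36 ± 0.076 in parental cells (69.6 ± 4.89 CPM on drug, 25.2 ± 1.08 CPM without), a difference of -2.21 ± 0.11 (adjusted p = 3e-09). In OVCAR8 4 of 19 tested targets were higher and 5 lower in NR than in parental controls, and without parental control replicate 2 there were 5 in each direction. Over all genes 4.94% were higher and 4.91% lower with that library, and 2118 and 2107 of 18537 without it.

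Other ligands of the family counted 2 higher and 1 lower of 5 tested in NR 5637 controls. Of all genes, 28.4% were higher and 28% lower there. CTF1, the gp130 cytokine cardiotrophin, rose on neratinib in the parental cells of both lines, by 1.49 ± 0.14 in 5637 (adjusted p = 5e-07) and 1.15 ± 0.14 in OVCAR8 (adjusted p = 8.1e-05; 1.28 without parental control replicate 2). Of 8 kinases and STATs, none was higher and 2 were lower in NR 5637 controls, with a median of -0.04, and of 5 tested inhibitors other than SOCS3, 1 was higher and 1 lower, with a median of 0.15. The called shares of both lists lay below the 56.5% over all genes. In NR OVCAR8 controls none of 6 other ligands or 8 receptors was called, 1 kinase or STAT gene was higher and 1 lower, and 1 of 5 inhibitors was lower. Without parental control replicate 2, 1 other ligand was lower, 1 receptor was higher and 1 lower, and 1 kinase or STAT gene was higher and 2 lower. Of all genes, 9.84% were called with that library, and 4225 of 18537 without it.

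Likeness between genes was measured as Pearson's r of mean log2 CPM over the 8 groups, after each line was centred on its own mean, among 11923 genes. It describes 8 points that share scaling and the line's centre, and no test was made. The pattern of IL6 was most like that of RELL1 (0.994), LARP1B (0.991) and PLB1 (0.991), IL11 like CREM (0.969), LIF like E2F5 (0.993) and CSF1 like NEDD9 (0.988).

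Fold changes depend on the scaling by TMM factors. With library size alone, the median over all genes became 0.12 for neratinib in NR 5637 cells, 0.13 in parental 5637 cells and 0.11 in parental OVCAR8 cells, against 0.00, 0.02 and 0.01 with TMM. The share of calls that were higher became 67.4%, 64.2% and 62.6% in these comparisons, against 46.6%, 50.4% and 49.8%. It was 40.5% against 52.4% for the OVCAR8 difference of drug effects, and 67.6% against 48.7% for the line difference of the drug effect in NR cells.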

How the data were processed

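The authors deposited a table of whole counts per gene, from 24 stranded poly(A) libraries, with gene length, symbol and coordinates. FastQC, STAR 2.5.3a, featureCounts 1.15.2, DESeq2 1.18.1 and hg19 are named in the submitters' processing notes, without roles, order or strand setting. Libraries were grouped by the labelled line, state and treatment. Counts were filtered with filterByExpr, scaled by TMM and fitted in edgeR 4.0.16 (R 4.3.3), whose quasi-likelihood test gave the p-values (12 libraries and 8 residual degrees of freedom per line, all 24 libraries between lines), with Benjamini-Hochberg adjustment over all genes and 0.05 as threshold. CPM use library totals of 23.8 M to 48.5 M without TMM, and RPKM also use gene length. SE is the log2 change divided by the square root of F. Depth limits genes of a few counts most.

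All 10 members were eligible to be named in every comparison, and not every value of theirs is given. From 7 lists written from general knowledge, up to 3 rising and 3 falling genes per comparison were eligible (called, absolute log2 change at least 1, at least 5 CPM, no overlap); FOSL1 in OVCAR8 controls, IL6R and IL31RA in OVCAR8, VEGFA in NR 5637 cells and the receptors of low level were added after their values were seen. The members, lists and tests were chosen with earlier results of these data known. Simulated counts held changes only in genes averaging at least 5 CPM, with the same spread for all genes of a fit. No simulated library stood apart as OVCAR8 parental control replicate 2 did. The recovery rates thus do not cover levels as low as those of IL6 in parental 5637 cells, or a fit with such a library. On these counts the drug effect in parental cells recovered 91.3% of 1.5-fold and 100% of 2-fold changes in 5637 (17749 genes), and 40.3% and 100% in OVCAR8 (17700 genes). The difference of drug effects recovered 43.5% and 96.7% in 5637, and 4.48% and 71% in OVCAR8. Alternatives were DESeq2 1.42.0, its size factors in edgeR, scaling to library size, all genes unfiltered, 1 CPM in 3 libraries, a replicate block, only the libraries compared, and leaving out each library.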

Additional observations from a re-analysis of the deposited data

Results flagged for a closer look

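In 5637 the effect of neratinib differed between NR and parental cells, by a test of the difference itself (edgeR, adjusted over all genes), for 5 members. The log2 difference was -1.64 for IL11, -0.78 for IL6ST, -0.57 for OSMR, -0.52 for LIF and 0.71 for CSF2. In OVCAR8 it was -1.37 for IL6 and -0.95 for CSF1.

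The effect of neratinib in NR cells differed between the lines, 5637 minus OVCAR8, by -1.71 for LIF, -1.08 for IL6, 0.77 for CSF1 and -0.65 for OSMR. The fitted values for CSF2 (-3.81) and CSF3 (-7.07) set NR 5637 cells against OVCAR8 libraries of 0 to 23 counts; without OVCAR8 NR neratinib replicate 1 they were -2.19 (adjusted p = 0.29) and -4.55 (adjusted p = 0.096), neither of them called. The OSMR value lost its call with library size only (-0.55, adjusted p = 0.088) and without 5637 NR neratinib replicate 3 or OVCAR8 NR neratinib replicate 2 (-0.60 and adjusted p = 0.054 in each). In parental cells the line difference was 1.73 for IL11, -1.47 for LIF and -1.57 for IL6. The IL6 value rests on 7 to 19 counts in each parental 5637 library.

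The difference of NR against parental cells without drug was larger in 5637 than in OVCAR8 by 4.67 for IL6, 2.24 for LIF, 1.70 for IL11, 1.53 for SOCS3, 1.25 for CSF1 and 0.55 for OSMR on the log2 scale. The OSMR value was not called with library size only (0.52, adjusted p = 0.052), without 5637 parental control replicate 3 (0.51, adjusted p = 0.054), or without OVCAR8 NR control replicate 1 (0.50, adjusted p = 0.054), parental control replicate 1 (0.45, adjusted p = 0.052) or parental control replicate 3 (0.37, adjusted p = 0.094). Line and dose cannot be told apart in the drug comparisons.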

How the results depend on the processing

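Of 78 called member results, 65 had the same call under every alternative tried, 13 lost it at least once, and 23 of 52 uncalled results gained one at least once. The number of members called moved by over 1.5 times in 4 comparisons. For neratinib in parental OVCAR8 cells it was 3, and 3 to 7 with 1 library left out (7 without parental control replicate 2). Between NR and parental OVCAR8 controls it was 4, but 0 with only the libraries compared and 2 to 6 with 1 left out. For neratinib in NR OVCAR8 cells it was 1, but 5 with only the libraries compared, 0 with any 1 of the 6 NR libraries left out and 5 without parental control replicate 2, a setting added after the data were seen. For the line difference of the drug effect in parental cells it was 3, but 5 with DESeq2, 5 without the filter and 3 to 6 with 1 left out. The cause was not tested.

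Over all genes, neratinib in NR OVCAR8 cells gave 251 calls, but 800 with DESeq2, 3641 with only the libraries compared, 43 to 74 with 1 NR library left out and 3950 without parental control replicate 2. NR against parental OVCAR8 controls gave 1779, but 490 with only the libraries compared and 993 to 4225 with 1 left out. Neratinib in parental OVCAR8 cells gave 5868, but 2865 with only the libraries compared and 9117 without parental control replicate 2. NR against parental OVCAR8 cells on drug gave 5596, but 10401 with only the libraries compared and 10286 without parental control replicate 2. The OVCAR8 difference of drug effects gave 1595, but 2520 with DESeq2 and 790 to 6076 with 1 left out. The line difference of the drug effect in parental cells gave 2083, and 3869 without OVCAR8 parental control replicate 2; in NR cells it gave 1988, and 4141 without that library.

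Every sign that turned belonged to a value not called with all libraries. STAT3 between NR and parental 5637 controls was 0.01 with DESeq2, DESeq2 size factors, library size only and only the libraries compared, and at most 0.03 with 1 left out. With library size only, STAT3 became 0.06 for neratinib in NR 5637 cells, 0.03 in parental OVCAR8 cells and -0.01 between NR and parental OVCAR8 cells on drug, and the line difference of the SOCS3 drug effect in NR cells became 0.03. With 1 library left out, the ranges over 0 in OVCAR8 were -0.26 to 0.42 (IL6ST), -0.34 to 0.04 (OSMR) and -0.17 to 0.02 (STAT3) for neratinib in parental cells; -0.21 to 0.47 (IL6ST) and -0.01 to 0.18 (STAT3) between controls; -0.14 to 0.03 (LIF), -0.08 to 0.02 (CSF1) and -0.02 to 0.08 (IL6ST) for neratinib in NR cells; and -0.39 to 0.29 (IL6ST), -0.33 to 0.04 (OSMR) and -0.16 to 0.02 (STAT3) for the difference of drug effects. Between lines they were -0.15 to 0.01 and -0.13 to 0.01 for SOCS3 (drug effect in parental and in NR cells) and -0.19 to 0.03 for STAT3 (controls).

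The labels do not say that replicate numbers mark pairs. Same-numbered deviations from group means correlated at -0.117 to 0.112 in 5637 and -0.0984 to 0.0954 in OVCAR8. Differently numbered libraries of different groups ran from -0.21 to 0.216 in 5637 and from -0.105 to 0.125 in OVCAR8. These ranges show no clear pairing by number, and they cannot exclude it. With the replicate block, 0 members were called for neratinib in NR OVCAR8 cells (IL11 -0.88, adjusted p = 0.056), with 98 genes called, and the line difference of the CSF1 drug effect in parental cells was called (-0.42, adjusted p = 0.041).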
